A study of Mus musculus with 7 samples.

Results

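Small nucleolar RNAs (snoRNAs) are short, stable RNAs that work in the nucleolus, where ribosomal RNA is made. Box C/D snoRNAs bind fibrillarin and guide 2'-O-methylation of ribosomal RNA, whereas box H/ACA snoRNAs bind dyskerin and guide pseudouridylation. A few of both kinds take part in the cleavage of the ribosomal RNA precursor instead. In mammals most snoRNAs are cut from introns of host genes, many of which encode ribosomal proteins or translation factors, so that the spliced host mRNA and the snoRNA leave the same primary transcript. Plasma cells are known for very high protein synthesis and memory B cells for quiescence.

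The snoRNA genes were the entries of the deposited table whose symbol was Snora or Snord followed by a number, and they were chosen by their level, at least 1 TPM (reads per transcript length, scaled to a common library total) in at least 3 of the 7 libraries. This gave 7 genes, 2 of box C/D (Snord118 and Snord17) and 5 of box H/ACA (Snora21, Snora23, Snora73b, Snora7a and Snora81), of 141 snoRNA entries and 48795 genes in all. The minimum uses the level only, but 4 plasma cell libraries can meet it without any memory B cell library, so the number of genes past it is no support for a difference. At 1 TPM or more, Snord118 had 1 MBC and 4 PC libraries, Snord17 had 3 and 4, Snora21 and Snora81 had 2 and 1, Snora23 and Snora73b had 1 and 3, and Snora7a had 1 and 2.

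The libraries were bulk RNA sequencing of B cells sorted from the spleen of wild type female C57BL/6 mice 8 to 12 weeks old, 10 days after intravenous sheep red blood cells, which raise a germinal center (GC) response. The comparison asks which transcripts separate memory B cells (MBCs; 3 libraries, B220+ CD138- IgD- CD38+ CD273+) from plasma cells (PCs; 4 libraries, B220-low CD138+ IgD-). All mice carried the same genotype and had the same immunization, and cells of both groups had passed over CD43 beads. The labels give no count of animals per library, so p-values measure the spread between these libraries.

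Levels below are scaled TPM, the deposited TPM divided by a factor per library (1.48 to 2.05 in MBCs and 0.636 to 0.813 in PCs) that sets the median ratio over genes seen in all libraries to 1. All 6 PC markers checked were called higher in PCs, where 6.41% of all genes tested were, and 3 of 8 MBC markers were called lower, where 2.14% were. MBC replicate 3 went against its label: Cd38, which was used to sort it, was at 6.77 scaled TPM against 130 and 186 in the other MBC libraries, and Ccr6 at 2.26 against 108 and 136. It also held 1980 TPM of 10 proliferation genes against 301 and 241 TPM in the other MBC libraries, and 1283 TPM of 6 GC B cell genes against 423 and 353 TPM. Over the 11573 genes tested its correlation with the PC libraries (Pearson's r of 0.7 to 0.777, across genes, which are not independent) was higher than with the other MBC libraries (0.687 and 0.681). MBC replicates 1 and 2 were at 0.675 with each other, so 0.687 and 0.681 are not low for this group. With the PC libraries those replicates were at 0.537 to 0.564. They also had the fewest genes above 0, 12983 and 11527, against 18061 in MBC replicate 3 and 14463 to 16768 in PCs. MBC replicate 2 held 6713 TPM of 6 erythroid genes, mainly globins, against 0.26 to 115.5 TPM in the other 6 libraries. Values without either library are given for the genes whose MBC reads it holds most of.

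The box motifs show which class a molecule belongs to, and the 5 sequences below are those the results turn on. They are the reference transcripts of GENCODE release M21 on GRCm38, printed as DNA, 5′ to 3′. In the first pair the capitals mark the box C motif searched (TGATGA) and the box D motif (CTGA). In the others they mark the last ACA of the sequence. In Snora23 the last ACA overlaps an earlier one, so the mark may not be the ACA box itself. It leaves 1 base to the 3′ end, against 3 in Snora73a and Snora73b. Snord118 lies at chr11:69073427-69073561 on the plus strand, 133 bases past the end of Tmem107, and in no host gene. Snord17 lies at chr2:144265979-144266216 on the minus strand, in an intron of Snx5. Snora23 lies at chr7:110046364-110046547 on the plus strand, in an intron of Ipo7. Snora73a and Snora73b lie at chr4:132352775-132352979 and chr4:132352322-132352526 on the minus strand, within both Rcc1 and Snhg3; Snora73a overlaps an exon of Snhg3 and Snora73b overlaps no exon.
Snord118: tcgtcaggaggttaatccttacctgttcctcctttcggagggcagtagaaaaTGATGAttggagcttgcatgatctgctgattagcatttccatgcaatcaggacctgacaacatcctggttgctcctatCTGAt
Snord17: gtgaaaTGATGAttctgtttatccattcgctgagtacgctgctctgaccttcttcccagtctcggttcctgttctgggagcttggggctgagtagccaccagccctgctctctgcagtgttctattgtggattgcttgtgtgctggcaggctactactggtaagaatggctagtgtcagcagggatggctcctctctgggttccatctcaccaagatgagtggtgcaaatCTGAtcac
Snora23: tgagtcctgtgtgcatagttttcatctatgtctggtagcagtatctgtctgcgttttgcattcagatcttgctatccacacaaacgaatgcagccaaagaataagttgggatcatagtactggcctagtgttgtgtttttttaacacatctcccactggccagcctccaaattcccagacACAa
Snora73a: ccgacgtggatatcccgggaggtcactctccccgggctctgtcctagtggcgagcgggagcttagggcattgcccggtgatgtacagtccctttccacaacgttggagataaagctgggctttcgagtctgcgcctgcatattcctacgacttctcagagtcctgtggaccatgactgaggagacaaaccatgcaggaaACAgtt
Snora73b: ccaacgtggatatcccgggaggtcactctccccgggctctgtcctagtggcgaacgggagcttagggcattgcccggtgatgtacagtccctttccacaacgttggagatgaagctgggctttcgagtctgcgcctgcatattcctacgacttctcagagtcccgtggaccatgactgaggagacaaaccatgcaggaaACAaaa

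Snora73a and Snora73b were identical at 198 of their 205 positions (96.6%), so reads may be split between them. Across the annotated entries, on the transcript strand only, TGATGA occurred in 75 of 99 box C/D sequences (75.8%) and in 0 of 42 box H/ACA sequences. CTGA within the last 20 nt occurred in 97 of 99 box C/D and 5 of 42 box H/ACA sequences, and ACA within the last 8 nt in 7 of 99 and 40 of 42 (95.2%). The symbols and the sequences thus divided the entries in nearly the same way.

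Which snoRNAs had any value at all followed transcript length. Of the 141 entries (138 distinct symbols), 21 were above 0 TPM in some library, 17 of 42 box H/ACA and 4 of 99 box C/D, and 120 were listed at 0 throughout. Box C/D transcripts had a median length of 84 nt (64 to 238) and box H/ACA transcripts of 132.5 nt (121 to 205). Over the whole table, the shortest gene with a single transcript that was above 0 had 114 nt, and the 3895 such genes below that length were all at 0, against 7420 above 0 of the 24267 longer ones. Of the box C/D entries 94 were shorter than 114 nt, all at 0, and 4 of the 5 longer ones were above 0. For entries under 114 nt the value of 0 says nothing of expression in either cell type.

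**Figure D1:**
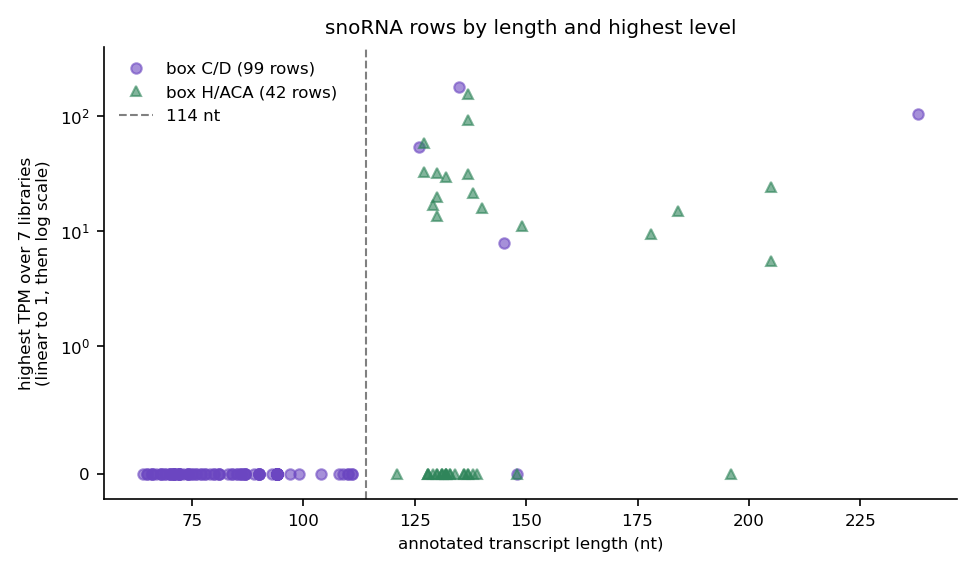
Highest TPM over the 7 libraries (vertical axis, linear to 1 and then on a log scale) against annotated transcript length in nt for the 141 snoRNA entries; circles are box C/D, triangles are box H/ACA, and the dashed line is at 114 nt. No point left of the line is above 0, and 21 points right of it are.

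Short transcripts that were seen rested on few reads. From low TPM values of other short genes, the worth of 1 read of 135 nt, the length of Snord118, came to 36.1, 34.5 and 20.6 TPM for the MBC libraries, in order of replicate here and below, against 12.0, 15.8, 25.1 and 14.8 TPM for the PC libraries. At 238 nt, the length of Snord17, it was 1.03 to 2.92 TPM over the 7 libraries. A single read of a short snoRNA thus reached the level of a well expressed mRNA in TPM, and the minimum of 1 TPM was passed by 1 read in 3 libraries. Over all snoRNA entries the MBC libraries had an estimated 10.6, 45 and 24.3 reads and the PC libraries 26, 15.5, 13 and 34.6 reads.

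**Figure D2:**
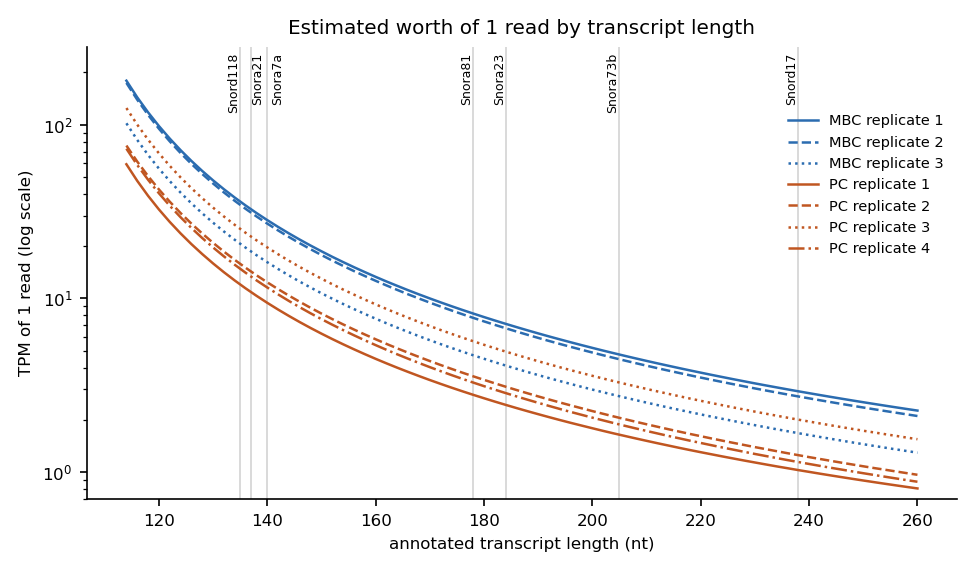
Estimated TPM of 1 read (log scale) against transcript length in nt, 1 line per library (blue, MBC; orange, PC), with grey lines at the lengths of the 7 snoRNA genes. At 135 nt 1 read was worth 12.0 to 36.1 TPM, and at 238 nt 1.03 to 2.92 TPM.

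Of the 7 genes, 1 was called higher in PCs (Snord118) and 0 were called lower, by limma with Benjamini-Hochberg adjustment over all 11573 genes tested, where a call needed an adjusted p under 0.05 and a log2 fold change of 1 or more in size. Over all genes tested 6.41% were called higher in PCs and 2.14% lower. Without that adjustment 2 of the 7, Snord118 and Snora73b, had a p under 0.05, where 24.2% of all genes did. The log2 fold change, PC minus MBC on log2(scaled TPM + 1), had a median of 1.16 for the 5 box H/ACA genes and of 0.14 for all genes tested. The median of the 2 box C/D genes, 2.24, describes neither, since they went opposite ways.

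**Figure D3:**
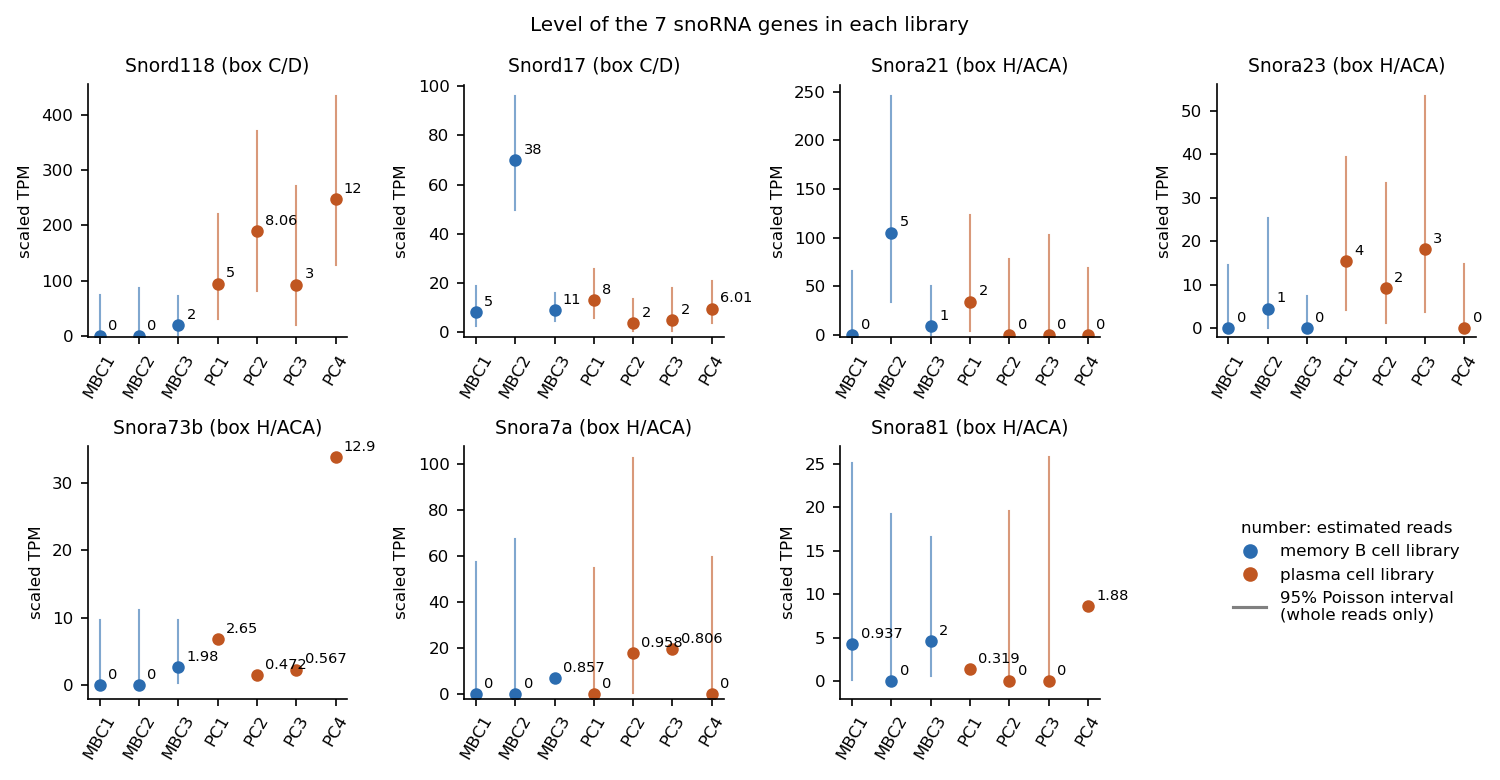
Scaled TPM of the 7 snoRNA genes in each library (blue, MBC; orange, PC), 1 panel per gene with its own linear axis; numbers beside points are estimated reads and vertical lines are 95% Poisson intervals, drawn where the estimate was within 0.1 of a whole number. Snord118 is the gene whose PC points (92.7 to 248) all lie above its MBC points (0 to 20.1), and Snord17 and Snora21 have their highest point in MBC replicate 2.

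Snord118, also called U8, was the snoRNA that separated the groups. U8 is a box C/D RNA transcribed from its own promoter and needed to process the large subunit's ribosomal RNA rather than to methylate it. MBC libraries held it at 0, 0 and 20.1 scaled TPM, whereas PC libraries held it at 94.7, 189, 92.7 and 248. Every PC library lay above every MBC library, a lack of overlap that 21.7% of all genes tested shared. Its mean in MBCs was 6.70 ± 11.6 (SD, n = 3), against 156 ± 76.0 (SD, n = 4) in PCs.

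Its log2 fold change was 5.70 (SE 0.99, adjusted p = 0.0064 by limma). The size of this value depends on the pseudocount, since MBC replicates 1 and 2 were at 0. With a pseudocount of 0.1 it was 7.92. In reads these levels were 0, 0 and 2 in the MBC libraries against 5, 8, 3 and 12 in the PC libraries, a ratio of 15.3 after allowing for the worth of a read (95% exact interval 3.87 to 133, counting error only). A count of 0 in MBC replicates 1 and 2 allows up to 59.4 and 69.8 scaled TPM (3 reads), below the lowest PC value. That value, in PC replicate 3, is itself 3 reads. Before scaling it was 75.4 TPM, with a 95% Poisson interval of 15.6 to 220 TPM. The counts alone thus do not separate that library from MBC replicates 1 and 2. The 2 reads that the MBC group had all came from MBC replicate 3, the library that went against its label. Without it the log2 fold change was 7.17 (adjusted p = 1.39e-04 by limma), a value that depends on the pseudocount since both remaining MBC libraries were at 0. Against a floor of 3 reads over both of them the level in PCs was at least 4.95-fold higher, and the exact interval of the ratio, which also counts the error of the PC reads, began at 3.77.

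The titles of MBC replicate 3 and PC replicate 4 share a prefix that the labels do not explain, and Snord118 was at 20.1 and 248 scaled TPM in them. Among the libraries with the other prefix it was at 0 and 0 in MBCs and at 92.7 to 189 in PCs (log2 fold change 6.90, adjusted p = 0.00117 by limma, again set in size by the pseudocount). Markers of T cells also moved with the groups. Of 8, 3 were tested and 2 of those were called higher in PCs, where 6.41% of all genes tested were. The sum of the 8 was 0, 0 and 5.1 TPM in MBCs and 10.7 to 43.4 TPM in PCs. Of 6 myeloid markers 1 of 4 tested (Fcer1g) was called higher, and S100a9 was at 0 in every library. Fcer1g was at 29.5, 0 and 0.37 scaled TPM in MBCs and at 36.6 to 95.8 in PCs. The others tested, Lyz2, Csf1r and Itgam, had log2 fold changes of -0.29, -0.96 and -0.37 without a call. In deposited TPM, without scaling, the sum of the 6 spanned 5.52 to 67.7 in MBCs and 29.7 to 72.1 in PCs. The proliferation gene Mki67 was at 41.2, 62.0 and 269 scaled TPM in MBCs and at 188 to 238 in PCs, so that the MBC library with Snord118 reads was also the one with a high Mki67 level, and none of the 10 proliferation genes was called. The part of other cells or of proliferation in the Snord118 difference was not tested. In bulk libraries a change in RNA per cell and in the number of cells of a type cannot be told apart.

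U3, the most abundant box C/D snoRNA of mammalian cells, is annotated under Rnu3 symbols and so fell outside the rule. U3 guides the early cuts that release the small subunit's ribosomal RNA, and like U8 it has genes of its own. Its 10 entries include copies with identical values within a library, so they were summed, a choice made after their values were seen. Summed U3 came to 0, 0 and 4.52 scaled TPM for the MBC libraries, below the 293, 151, 108 and 149 of the PC libraries. MBCs had a mean of 1.51 ± 2.61 (SD, n = 3), against 175 ± 80.9 (SD, n = 4) for PCs.

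These levels correspond to 0, 0 and 4 reads in MBCs and to 134, 58, 32 and 68 reads in PCs (ratio 79.7, 95% exact interval 30.8 to 294, counting error only). In PCs U3 rested on 292 reads and Snord118 on 28, and both had their only MBC reads in replicate 3, the library with the high proliferation and GC B cell genes. Without that library the U3 level in PCs was at least 51.9-fold higher, against a floor of 3 reads over both remaining MBC libraries, and the exact interval of the ratio began at 41.9. One single copy, Rnu3a (ENSMUSG00000106147), was at 0 in all MBC libraries and at 3.53 to 29.6 scaled TPM in PCs (log2 fold change 3.42, SE 0.72, adjusted p = 0.017 by limma). A further 4 copies under Rnu3b symbols held identical values and were not called (difference of 4.01 on the log2 scale, SE 1.25, adjusted p = 0.0846 by limma). As these copies had no MBC reads, their fitted differences depend on the pseudocount and are not bounds.

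**Figure D4:**
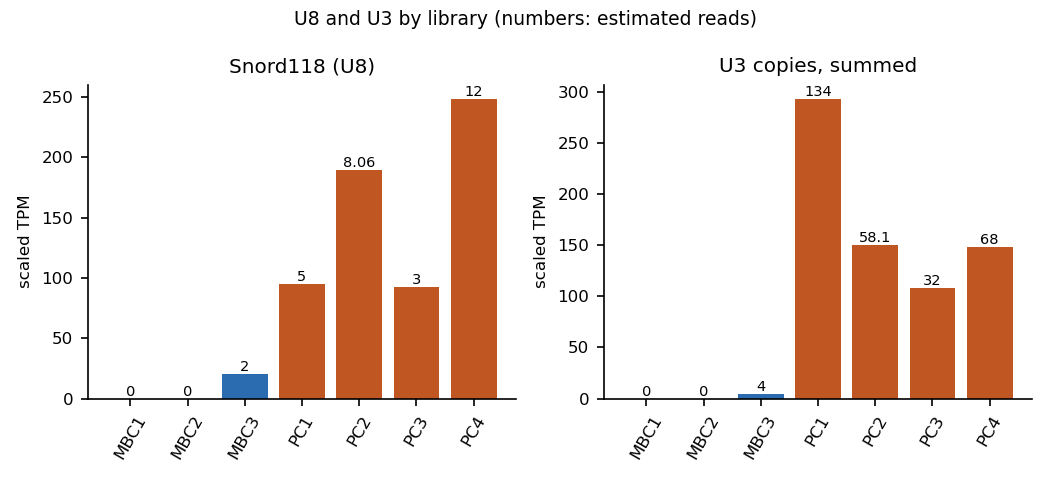
Scaled TPM of Snord118 (U8, left) and of the summed U3 copies (right) in each library (blue, MBC; orange, PC), with estimated reads above the bars. In both panels the bars of MBC replicates 1 and 2 are at 0 and all 4 PC bars are higher than that of MBC replicate 3.

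Snord17, a long box C/D RNA in an intron of the sorting nexin gene Snx5, went the other way in its mean without a call. Its levels were 8.01, 69.9 and 8.99 scaled TPM for the MBC libraries, against 12.9, 3.73, 4.93 and 9.58 for the PC libraries. The groups overlapped, and MBC replicate 2 alone stood well above the other 6 libraries. The log2 fold change was -1.21 (SE 0.77, adjusted p = 0.372 by limma), and without MBC replicate 2 it was -0.24 (adjusted p = 0.839 by limma). With TPM as deposited, without scaling between libraries, it was called lower in PCs (-2.41, adjusted p = 0.033 by limma).

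Snord17, the longest member, had the most reads, 5, 38 and 11 in MBCs and 8, 2, 2 and 6 in PCs. Pooled over each group, 54 reads against 18 gave a ratio of 0.364 (95% exact interval 0.201 to 0.631), an interval that covers counting error only and not the spread between libraries. Of the 54 MBC reads, 38 came from the library with the high globin level. The part of erythroid cells in this value was not tested.

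Its host Snx5 was likewise highest in MBC replicate 2. Snx5 was at 168, 453 and 123 scaled TPM in MBCs and at 86.1 to 107 in PCs, with no overlap, as for 21.7% of all genes tested. On the log2 scale the difference was -1.11 (SE 0.44, adjusted p = 0.157 by limma), close to that of Snord17. Without MBC replicate 2 it was -0.56 (adjusted p = 0.333 by limma), so that for both genes the size rested on the library with the high globin level. Without MBC replicate 3 Snx5 was called lower in PCs (log2 fold change -1.50, adjusted p = 0.0353 by limma).

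Among the box H/ACA genes, Snora73b had the largest log2 fold change. Snora73 (U17, also called E1) takes part in the cleavage of the small subunit's ribosomal RNA rather than in pseudouridylation. Snora73b was at 0, 0 and 2.64 scaled TPM in MBCs and at 6.84, 1.44, 2.29 and 33.8 in PCs. Only PC replicate 4 stood clearly apart, and the groups overlapped (log2 fold change 2.15, SE 0.94, adjusted p = 0.195 by limma). Without MBC replicate 3, which held its only MBC value above 0, it was 2.77 (adjusted p = 0.0942 by limma). Its values did not come to whole reads (12.9 in PC replicate 4, 0.47 to 2.65 in the other libraries above 0), so no whole number of reads could be assigned.

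Snora73a, the near-identical neighbour, was below the minimum, at 2.67 scaled TPM in MBC replicate 3 and 6.63 in PC replicate 3 and at 0 elsewhere. The genes that hold both are Rcc1, a chromatin-bound exchange factor, and Snhg3, a non-coding host. Rcc1 was at 4.16, 7.81 and 19.1 scaled TPM in MBCs and at 7.08 to 16.3 in PCs (log2 fold change 0.20, SE 0.56). Snhg3 was at 0.71, 91.8 and 9.0 in MBCs and at 2.74 to 13.2 in PCs (log2 fold change -0.41, SE 1.15), and like Snord17 and Snora21 it was highest in MBC replicate 2, without which its log2 fold change was 1.09. Neither host was called (adjusted p = 0.856 and 0.86 by limma).

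Snora23, a box H/ACA RNA in an intron of the import receptor gene Ipo7, was seen in more PC than MBC libraries. Its level was 0, 4.54 and 0 scaled TPM in MBCs and 15.4, 9.23, 18.2 and 0 in PCs, and the groups overlapped because PC replicate 4 was at 0. The log2 fold change was 2.09 (SE 1.08, adjusted p = 0.276 by limma), and 2.91 (adjusted p = 0.192) without MBC replicate 2, which held its MBC read. It rested on 1 MBC read and 9 PC reads (ratio 9.82, 95% exact interval 1.36 to 431, counting error only). The counts alone leave a wide range, and the spread between libraries did not pass the test. Ipo7 was at 13.2 to 27.0 scaled TPM in MBCs and 21.9 to 31.8 in PCs (log2 fold change 0.45, SE 0.38, adjusted p = 0.511 by limma).

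Snora21, in the ribosomal protein gene Rpl23 (chr11:97781639-97781775), was at 0, 105 and 9.08 scaled TPM in MBCs and at 34.2, 0, 0 and 0 in PCs. Its reads were 0, 5 and 1 against 2, 0, 0 and 0, and as with Snord17 most of them came from MBC replicate 2. The log2 fold change was -2.07 (SE 1.67, adjusted p = 0.49 by limma), and a difference was not detectable at this depth. It was -0.38 (adjusted p = 0.915) without MBC replicate 2 and ranged from -3.75 to -0.38 over the fits that left out 1 library. Rpl23 itself was at 266 to 421 scaled TPM in MBCs and 249 to 428 in PCs, with a log2 fold change of -0.01 (SE 0.33).

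Snora7a, in the ribosomal protein gene Rpl32 (chr6:115807975-115808114), was at 0, 0 and 6.75 scaled TPM in MBCs and at 0, 17.6, 19.5 and 0 in PCs, each value being about 1 read or less. Its log2 fold change was 1.16 (SE 1.29, adjusted p = 0.632 by limma), beside -0.23 (SE 0.37) for Rpl32, and was 2.14 (adjusted p = 0.315 by limma) without MBC replicate 3. In the annotation Snora7a overlaps an exon of Rpl32 on the same strand, so their reads cannot be fully told apart.

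Snora81, in the translation initiation factor gene Eif4a2 (chr16:23110756-23110933), was at 4.21, 0 and 4.58 scaled TPM in MBCs and at 1.40, 0, 0 and 8.60 in PCs. The groups overlapped, and on the log2 scale the difference was -0.49 (SE 0.92, adjusted p = 0.789 by limma), beside -0.34 (SE 0.40) for Eif4a2. Without MBC replicate 3 it was -0.06 and without MBC replicate 2 it was -1.30 (adjusted p = 0.974 and 0.458 by limma). It too overlaps other transcripts of the same strand, and its values of 0.32 to 2.00 reads were not all whole.

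**Figure D5:**
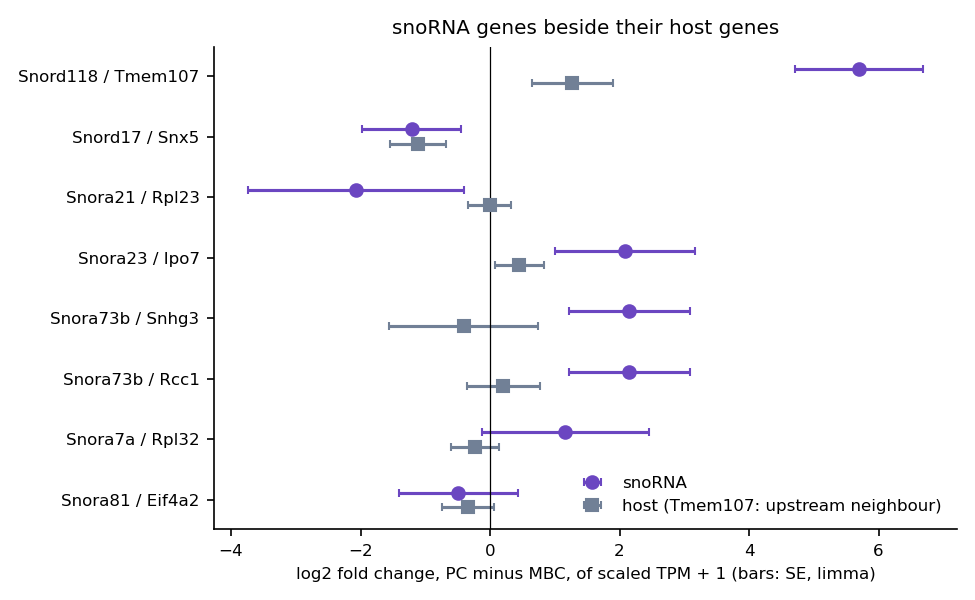
log2 fold change (PC minus MBC, of scaled TPM + 1; bars are SE from limma) of each snoRNA gene (circles) and of its host gene (squares; for Snord118 the upstream neighbour Tmem107). The squares of the hosts lie between -1.11 and 0.45, and Snord118 at 5.70 is the circle farthest from 0.

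No host of the 7 genes was called in either direction on scaled TPM with all 7 libraries, though Snx5 was without MBC replicate 3. With TPM as deposited Rpl23 (-1.33), Rpl32 (-1.55), Eif4a2 (-1.66) and Snx5 (-2.43) were called lower in PCs, as were Rpl32 (-2.07) and Snx5 (-1.87) with quantile normalization (adjusted p of 0.0029 to 0.0239 by limma). Tmem107, which ends upstream of Snord118 on the same strand, was at 0 to 2.59 scaled TPM in MBCs and at 1.59 to 6.29 in PCs, and was not called (log2 fold change 1.27, SE 0.63, adjusted p = 0.251 by limma). Of the 141 entries 134 lay inside a host on the same strand, 87 hosts in all. Of the 80 hosts that could be tested 2 were called higher in PCs and 0 lower, where 6.41% and 2.14% of all genes tested were, and their median log2 fold change was -0.01. Those called were Rpl10, the host of Snora70, and Gm20388, which overlaps Rpl13 at Snord68, with log2 fold changes of 1.52 (SE 0.37) and 2.67 (SE 0.52) and adjusted p of 0.0329 and 0.0125 by limma.

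The 14 entries above 0 but below the minimum had 1 or 2 libraries each. Ranked by their second-highest library, the nearest outside were Snora28 (32.98 TPM), Snora30 (21.14) and Snora3 (18.28), all with a third-highest value of 0. The nearest inside were Snora73b, Snora81 and Snora23, whose third-highest values were 4.35, 6.17 and 6.74 TPM. Snora28 had its 2 reads in MBCs, while Snora30 had 3 and Snora3 had 2 reads in PCs, numbers too small to compare. Their hosts Eif5 (log2 fold change 0.81, adjusted p = 0.112), Srcap (-0.73, adjusted p = 0.221) and Rpl27a (-0.38, adjusted p = 0.477, all by limma) were not called. Snord22, a box C/D RNA of the non-coding host Snhg1, was at 29.7 scaled TPM in MBC replicate 1 and 0 elsewhere, and Snhg1 was not called (log2 fold change 0.56, adjusted p = 0.567 by limma).

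As a share of the deposited TPM, the box C/D genes took 0.00146%, 0.0104% and 0.00597% of MBC libraries and 0.00684%, 0.013%, 0.00794% and 0.0185% of PC libraries. On average this was 0.00593% ± 0.00446 (SD, n = 3) for MBCs, against 0.0116% ± 0.00533 (SD, n = 4) for PCs, with overlapping groups. In PCs this share was mostly Snord118, and in MBC replicate 2 it was all Snord17. For the box H/ACA genes it was 0.00725% ± 0.00805 (SD, n = 3) in MBCs, against 0.00297% ± 0.000757 (SD, n = 4) in PCs. The higher MBC mean rested on MBC replicate 2, at 0.0163%, where Snora21 alone made up nearly all of it. PC minus MBC, the difference was -0.00429 percentage points, and without that library it turned to 0.000218.

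On the protein side of the pathway no listed gene was called. None of the 4 box C/D core proteins (median log2 fold change 0.27) was called, and fibrillarin (Fbl), the methyltransferase, was at 18.3 to 74.4 scaled TPM in MBCs and 41.2 to 88.5 in PCs. None of the 4 box H/ACA core proteins (median 0.66) was called, and dyskerin (Dkc1), the pseudouridine synthase, had a log2 fold change of -0.01 (SE 0.45). Nor was any called of 11 assembly factors (median 0.20), 6 proteins of the U3 particle (0.08), 11 trimming, capping and decay factors (-0.07) or 13 tested non-coding host genes (0.27). Of the U3 particle, Utp3 did not overlap between the groups (51.8 to 69.0 scaled TPM in MBCs and 32.2 to 51.5 in PCs). Nor did the non-coding host Snhg17 (4.50 to 9.27 in MBCs and 1.09 to 2.75 in PCs). Such a lack of overlap was shared by 21.7% of all genes tested. These lists were drawn up with earlier results known, and 8.55% of all genes tested were called in either direction.

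Other short non-coding RNAs did not all follow U8 and U3. Of 22 Rnu entries, which hold U3 and the spliceosomal RNAs, 8 were tested and 2 were called higher in PCs, Rnu3a and Rnu2-10, where 6.41% of all genes tested were. The tested entries include the 4 identical Rnu3b copies, so they are not 8 separate genes. Rnu2-10, a U2 spliceosomal RNA, was at 0, 0 and 1.3 scaled TPM in MBCs and 3.42 to 17.0 in PCs (log2 fold change 2.94, SE 0.66, adjusted p = 0.0227 by limma). Of 9 Scarna entries, which guide the modification of spliceosomal RNAs, 5 were above 0, and the one tested, Scarna2, had a log2 fold change of -0.18 (SE 0.72). Rmrp and Rpph1, the RNAs of RNase MRP and RNase P, had log2 fold changes of -0.58 (SE 0.79) and 0.19 (SE 0.90). Rn7sk and Terc, at 2.73 (SE 1.79) and 1.52 (SE 0.81), were not called either (adjusted p = 0.386 and 0.286 by limma).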

How the data were processed

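The authors deposited 1 table of TPM values (reads per transcript length, scaled to a common total), for 48795 Ensembl mouse genes in 7 libraries of total RNA made with a Nugen cDNA kit. The submitters' processing notes name STAR 2.5.2a, RSEM 1.3.0, DESeq2 1.18.1 and GRCm38, without saying what each was used for. The annotation release is not given in the sources used here. RNA was purified on AllPrep columns; columns of this kind retain short RNA poorly, and quantification that divides by an effective length gives no value to transcripts shorter than the fragments. Both can limit what such libraries show of snoRNAs, and the part of either here was not tested.

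Groups and replicate numbers came from the sample descriptions. Symbols, positions, hosts and sequences came from GENCODE release M21 (GRCm38), which matched 48349 genes. A host was a gene of the same strand whose span holds the snoRNA. A scaling factor per library, the median over 9305 genes above 0 in every library of TPM over the gene's geometric mean, gave scaled TPM. The 11573 genes reaching 1 TPM in 3 or more libraries entered limma 3.58.1 (R 4.3.3; lmFit, eBayes with trend) as log2(scaled TPM + 1), without covariates, since the body of the study states no test for these libraries. Fold changes on this scale understate changes of genes at about 1 scaled TPM or less. For short genes with libraries at 0, where 1 read is worth many TPM, their size depends on the pseudocount. It can then exceed the ratio of reads. On simulated data for this comparison (11573 genes), 79 of 100 genes changed by 4 on the log2 scale and 24 of 100 changed by 2 were called, with 7 of 11373 unchanged genes called.

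TPM holds no depth, so the worth of 1 read was fitted in each library from low values of other genes with 1 transcript of 114 to 300 nt, chosen after the data were seen. Between 61.3% and 75.3% of those values lay within 0.1 of a whole read, where 17.8% of evenly spread values would. The curve was fitted to bring these same values near whole reads, so 17.8% is not the chance level of a fitted curve. On 2 simulated libraries (4138 genes), drawn from the same form of curve as was fitted, the error was at most 0.0565%. That error covers the fitting step only, since the simulation cannot tell whether real libraries follow such a curve. Count tests were not run on these reads, since they were recovered for short single-transcript genes only. Intervals are 95% Poisson or exact, floors are 3 reads, and both cover counting error only, as reads without molecular identifiers are not independent molecules.

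The genes and lists were chosen with earlier results of these data known. Named were the called genes, the 6 of each class with the highest mean TPM, the 3 just inside and outside the minimum, snoRNAs with their own promoter or a role in cleavage, and all their hosts; U3 was added after its values were seen. Other steps ran in Python 3.11.15 with scipy 1.17.1, numpy 2.4.6 and pandas 2.3.3. Alternatives were another pseudocount, no filter, 3 other scalings, 2 blocks, 1 title prefix only and each library left out.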

Additional observations from a re-analysis of the deposited data

Results flagged for a closer look

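Dixon's gap test at 95% was applied to the 4 PC levels of 22 results. Its chance rate of about 1 in 20 holds for normally spread values, not for levels that rest on a few reads. A gene above 0 in a single PC library has a gap over range of 1.000 whatever its level. Snora21 in PC replicate 1, at 34.23 scaled TPM, stood apart from the other PC libraries, which were at 0 (gap over range 1.000); it rests on 2 reads. Snora73b in PC replicate 4, at 33.75 scaled TPM, stood apart from the next highest at 6.842 (gap over range 0.833). Snora81 in PC replicate 4, at 8.602 scaled TPM, stood apart from the next highest at 1.4 (gap over range 0.837); it rests on about 2 reads.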

How the results depend on the processing

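Snord118 remained called higher in PCs under 8 other settings and in 7 fits that left out 1 library each, with log2 fold changes of 4.87 to 7.92 and adjusted p of at most 0.0455 by limma, and no box H/ACA gene was called under any. With TPM as deposited 1 box C/D gene was called lower, Snord17 (log2 fold change -2.41, adjusted p = 0.033). That setting shifts the median of all genes to -0.91 and the calls to 472 higher and 3018 lower, against 742 and 248. Of all calls 13.5% were then higher, against 74.9% with the scaling used, 56.2% with quantile normalization and 66.3% with abundant and short RNA genes removed from the total. The median of the box C/D genes was 3.31 with a pseudocount of 0.1 and 1.23 with TPM as deposited. The box C/D share difference, 0.00562 percentage points, was 0.0179 without immunoglobulin genes, 0.00332 without PC replicate 4 and 0.00339 without MBC replicate 1.

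With TPM as deposited Rpl23, Rpl32, Eif4a2, Snx5, Rpl27a (-1.69) and Srcap (-2.03) were called lower in PCs. Directions turned with that setting for Ipo7 (-0.82), Rcc1 (-0.99), Eif5 (-0.51), Gm42715, a gene overlapping Snora30 (-0.59), and Snhg1 (-0.73), for Gm42715 with quantile normalization (-0.04), and for Rpl23 within the more frequent title prefix (0.03). With 1 library left out in turn, Rpl23 ranged from -0.19 to 0.14, Rcc1 from -0.25 to 0.73 and Snhg3 from -1.79 to 1.09, the last without MBC replicate 2.

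Deviations from the group means correlated at 0.109, -0.040 and -0.083 for libraries sharing a replicate number. Those sharing a full title code, MBC replicates 1, 2 and 3 with PC replicates 1, 3 and 4, were at 0.109, -0.004 and 0.222. Pairs sharing neither were at -0.176 to 0.152. Correlations over so few libraries cannot exclude a pairing, and the labels do not explain the codes. The main fit used no pairing, and fits with either as a block were run beside it. With the replicate number as a block Snord118 was at 5.43 (adjusted p = 0.0145), with the title code at 5.56 (adjusted p = 0.00155), and the replicate block changed no call among the 7 genes. Depth limits most values: 1 read of the shorter genes is worth 9.43 to 36.1 TPM, so differences of a few reads were not detectable.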
